A study of Mus musculus with 4 samples.

Results

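The interferon-stimulated genes described here are 42 mouse genes chosen by symbol, of which 41 have a row among the 31053 genes of both deposited matrices. Mx2 was not analysed here. By role the 41 genes comprise 3 genes of ubiquitin-like modification, 14 antiviral effectors, 3 transcription factors or adaptors, 5 nucleic acid sensors, 2 chemokines, 7 GTPases and 7 other interferon-induced genes. They were described in cells sorted from the ovaries of wild-type C57BL/6J mice as CD45+CD11b+, a gate for myeloid cells, at 3 months and at 15 months of age. The mice were virgin, and no treatment was given. Each age had 3 pools of animals marked with separate hashtag antibodies, then sorted together and sequenced as 1 single-cell 3′ library. The submitters' texts differ on the animals. The series text gives 2 mice per pool, while the protocol gives animals of 2 to 3 and 14 to 17 months and states that 1 of the older pools came from 1 mouse. Because each age was 1 sort and 1 library, age and library cannot be told apart, and a p-value between ages measures the spread between pools within a library. The question was how these genes are distributed over the ovarian myeloid cell types and whether their levels differ between the ages.

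Interferons signal through cell-surface receptors. Type I interferons bind Ifnar1 and Ifnar2 and activate transcription at interferon-stimulated response elements. Interferon gamma binds Ifngr1 and Ifngr2 and activates transcription at gamma-activated sites. The induced genes include Isg15, a ubiquitin-like protein attached to other proteins, and Usp18, the protease that removes it. Ifit1, Ifit2 and Ifit3 bind viral RNA or partner proteins, the Oas family makes the second messenger that activates RNase L, and Rsad2 (viperin) blocks viral genome synthesis. Bst2 (tetherin) holds budding virions at the cell surface, and Ifitm3 hinders viral entry through endosomes. Zbp1, Ifih1 and Dhx58 sense nucleic acids, Irf7 is a transcription factor that amplifies type I interferon production, and Cxcl9 and Cxcl10 are chemokines for Cxcr3-bearing lymphocytes. The guanylate-binding proteins (Gbp) and immunity-related GTPases (Irgm1, Igtp, Iigp1, Ifi47) act on pathogen-containing vacuoles.

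The genes lie partly in clusters in the genome. Ifit1, Ifit2 and Ifit3 are 3 members on chromosome 19. The 7 members on chromosome 5 are Cxcl9, Cxcl10 and 5 Oas or Oasl genes, and chromosome 3 carries Gbp2, Gbp3, Gbp5 and Ifi44. RefSeq promoter windows of 300 bases (250 before to 50 after a gene's start, build GRCm38.p6) were available for 30 of the members. The core of the response element, searched as GAAANNGAAA on both strands (TTTCNNTTTC on the other), was found in 19 of these 30 members, 63.33%, and in 3.99% of the 27025 genes of the table. Among the GTPases it was found in 5 of 6. The gamma-activated site, searched as TTCNNNGAA, which reads the same on both strands, was found in 7 of 30 members, 23.33%, and in 9.55% of all genes. The 2 motifs can overlap, and a match is a description of these letters only. The stretches below are shown because the results turn on these genes. They carry the letters with 20 flanking bases on each side, given 5′ to 3′ on the gene's own strand, with matches to the response element in capitals.

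Isg15 (chr4:156200855-156200916, minus strand): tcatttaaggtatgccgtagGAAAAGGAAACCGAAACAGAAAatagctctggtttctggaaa
Ifit1 (chr19:34640765-34640833, plus strand): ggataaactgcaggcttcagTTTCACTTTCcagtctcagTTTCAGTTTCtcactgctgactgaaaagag
Ifit3 (chr19:34583353-34583436, plus strand): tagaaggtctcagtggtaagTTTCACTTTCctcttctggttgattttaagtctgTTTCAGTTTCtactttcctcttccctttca
Rsad2 (chr12:26456543-26456592, minus strand): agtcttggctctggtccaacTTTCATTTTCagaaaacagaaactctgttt
Cxcl10 (chr5:92349073-92349122, minus strand): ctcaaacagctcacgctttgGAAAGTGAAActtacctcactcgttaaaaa
Gbp2 (chr3:142620584-142620633, plus strand): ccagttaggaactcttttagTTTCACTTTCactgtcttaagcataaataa
Bst2 (chr8:71537567-71537622, minus strand): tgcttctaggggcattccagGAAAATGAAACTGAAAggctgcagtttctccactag

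Isg15 has 3 overlapping matches, starting 78, 72 and 66 bases before the gene's start. Ifit1 has matches at 104 and 85 bases, and Ifit3 at 156 and 122 bases before the start. Bst2 has a pair that overlaps at 130 and 124 bases, Rsad2 has 1 at 120, Cxcl10 has 1 at 213 and Gbp2 has 1 at 59 bases before the start. Irf7 has no match in its window.

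Of 3135 barcodes at 3 months and 4939 at 15 months, 2232 and 4347 had at least 500 genes, at least 1000 UMIs (counted RNA molecules) and at most 10% mitochondrial UMIs. Of these, 1837 and 3833 carried a single hashtag and were kept, with 468, 449 and 920 cells in pools 1 to 3 at 3 months and 739, 2205 and 889 at 15 months. Only 3 barcodes occurred in both libraries. The cells were clustered without the interferon-stimulated genes, and clusters were named from marker lists. Clusters that met no naming rule are called by number: cluster 0 (610 cells) had macrophage markers in first place with classical monocyte markers next, and cluster 14 (141 cells) had neutrophil markers in first place. Haemoglobin UMIs were higher at 3 months than at 15 months in the tested classes, 0.0333% to 0.356% against 0.0020% to 0.0094% of UMIs over their pools. In all mononuclear phagocytes together, a wider group defined below, they were 0.372% to 2.20% against 0.0026% to 0.0346%. Mitochondrial UMIs were higher at 15 months, without overlap between the ages, in NK-like, cDC2-like, macrophage-like and non-classical monocyte-like cells and cluster 0. The ages overlapped in neutrophil-like cells, and in stroma or fibroblast-like cells at 3.49% to 4.18% and then 3.33% to 4.10%. The part of both in the age results was not tested.

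The order of cell types differed between the interferon-stimulated genes, and no class was highest for all of them. Isg15 stood at 1621 CPM (the UMIs of a gene scaled to a common total) in cluster 14, at 533 CPM in neutrophil-like cells and at 406 CPM in mature dendritic-like cells, against 38.4 CPM in non-classical monocyte-like and 23.7 CPM in B-like cells. Rsad2 had the same leading cluster, with 1268 CPM in cluster 14 and 143 CPM in neutrophil-like cells. Ifit1 stood at 315 CPM in cluster 14, and every other class was at or under 56.0 CPM. Cluster 14 was thinly and unevenly sampled, with 15 cells at 3 months and 126 at 15 months, so it was not tested. Pool 2 at 15 months held 111 of its cells, so its levels are mostly those of that pool.

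Ifitm3 and Ifi27l2a were highest in monocyte-like cells. Ifitm3 reached 7153 CPM in classical monocyte-like cells and 4566 CPM in non-classical monocyte-like cells, against 29.9 CPM in NK-like cells. Ifi27l2a was at 2883 CPM in classical monocyte-like cells and 2034 CPM in cluster 0, against 18.4 CPM in NK-like cells. Bst2 had a different order, with 582 CPM in stroma or fibroblast-like cells, 477 CPM in macrophage-like cells and 29.2 CPM in neutrophil-like cells. Cxcl9 stood at 345 CPM in mature dendritic-like cells and 186 CPM in cDC2-like cells (conventional type 2 dendritic cells, which present antigen to helper T cells).

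**Figure D1:**
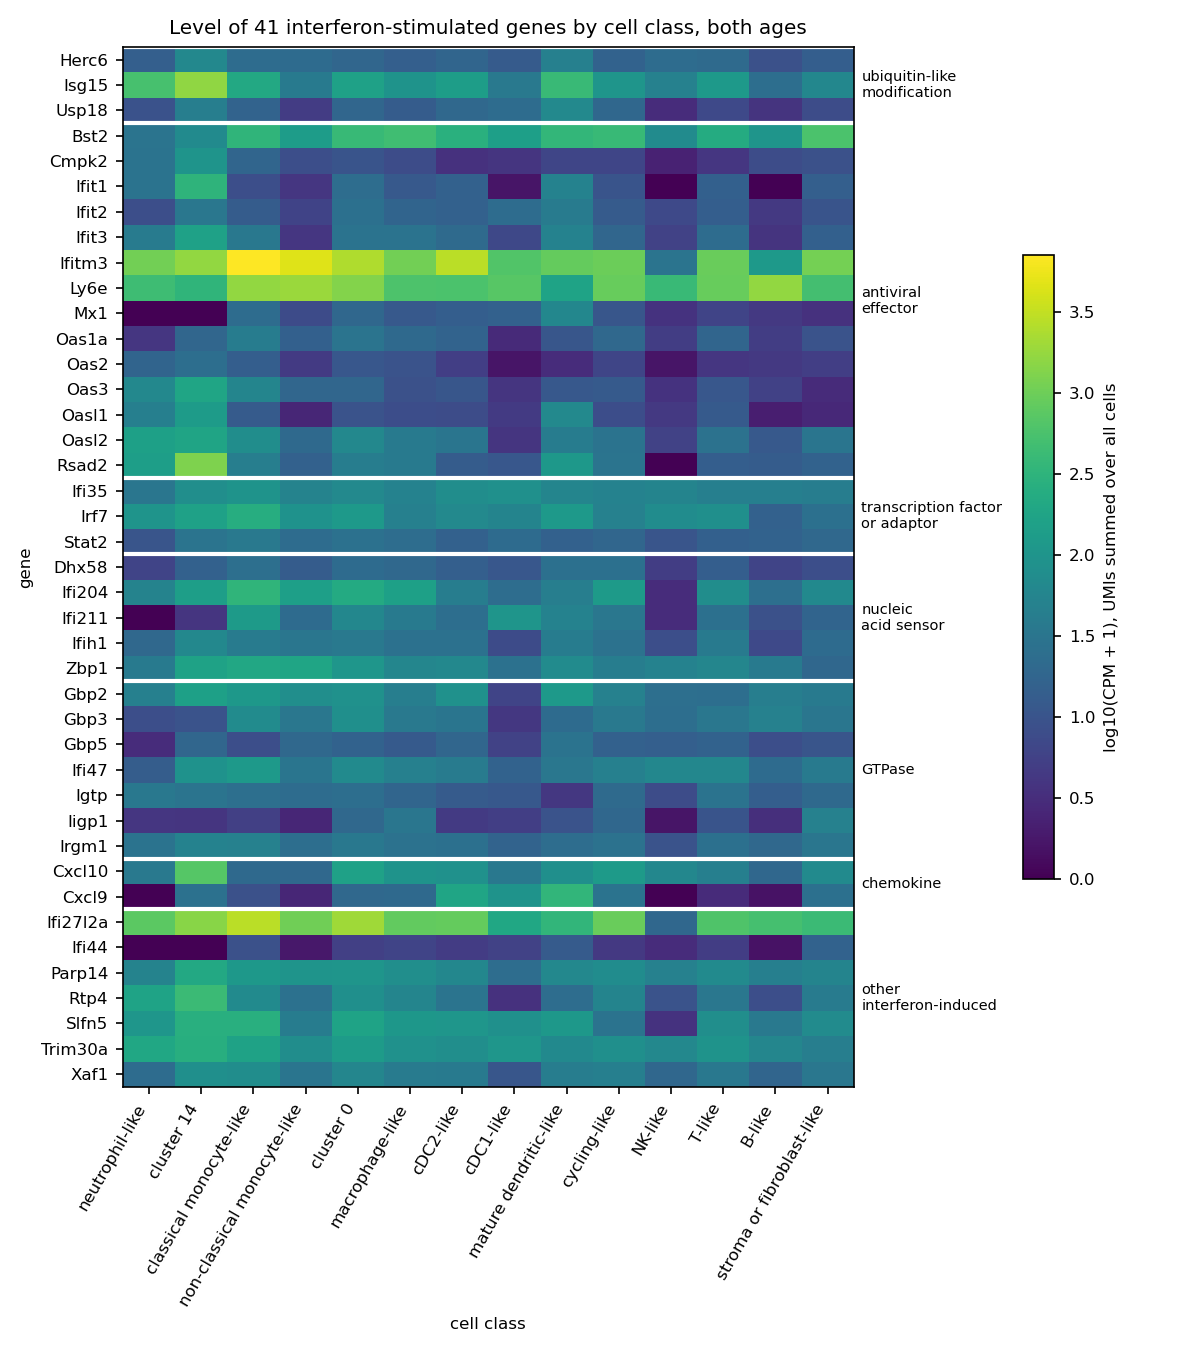
Levels of the 41 interferon-stimulated genes (rows, grouped by role) in 14 cell classes or clusters (columns), as log10(CPM + 1), pooled over all kept cells of a class and to be read along a row. Isg15 and Rsad2 are highest in cluster 14 at 1621 and 1268 CPM, Ifitm3 in classical monocyte-like cells at 7153 CPM and Bst2 in stroma or fibroblast-like cells at 582 CPM.

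Counts were summed per pool in the 7 classes for which no pool had fewer than 10 cells, and each class was compared with the other 6 classes in 1 edgeR quasi-likelihood fit over 6952 genes, with the pool as a block. The fit tested 32 of the 41 members. Cluster 0 held 27 of the 32 members at a higher level and none at a lower one (median log2 ratio 1.15), where 25.9% of all genes tested were higher and 8.63% lower. NK-like cells, the lymphocytes that make interferon gamma, had 23 of 32 lower and none higher (median -1.81), where 25.9% of all genes were higher and 25.0% lower. Macrophage-like cells had 13 higher and none lower (36.0% of genes higher and 17.6% lower), a share near the background. The macrophage count was 20 without pool 2 of the 3-month mice and 7 without pool 2 of the 15-month mice, and the NK-like count was 14 without the latter.

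Neutrophil-like cells had members in both directions, 13 higher and 5 lower, against 25.5% and 37.9% of all genes. Isg15 averaged 614 ± 209 CPM (SD, n = 6 pools) there, with pools from 307 to 871, against a mean of 95.8 CPM in the other classes (log2 ratio 3.15 ± 0.26 SE, edgeR adjusted p = 1.09e-14). Isg15 averaged 185 ± 124 CPM in cluster 0 and 151 ± 175 CPM in cDC2-like cells, whose pools overlapped, and 39.2 ± 18.9 to 46.3 ± 24.6 CPM in non-classical monocyte-like, NK-like and stroma or fibroblast-like cells, which did not differ beyond their spread. The other members furthest above were Rsad2 (209 ± 97.4 CPM, log2 ratio 4.30), Oasl1, a relative of the Oas enzymes (4.04), and Oas3 (3.55). Bst2 was lower in neutrophil-like cells at 46.0 ± 39.2 CPM (log2 ratio -2.73 ± 0.26, edgeR adjusted p = 1.66e-12), as was the guanylate-binding protein Gbp3 (-2.01). Ifi211, a DNA sensor relative, had 0 UMIs in 439 neutrophil-like cells, which allows up to 3.13 CPM. The members were thus not higher as a block in this class.

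The phagocyte classes each had their own leading members. In cluster 0 these were Ifi211 (log2 ratio 3.25), Ifi204, a DNA sensor (2.46, 246 ± 26.8 CPM), and Ifit1 (2.34), and Ly6e, a membrane protein that modulates viral entry, averaged 1272 ± 288 CPM. In macrophage-like cells they were Iigp1 (2.82), Ifi211 (2.49) and Ifi204 (1.78). Among cDC2-like cells 8 members were higher and 1 lower, against 28.0% and 12.7% of all genes. Cxcl9 led there with a log2 ratio of 5.86 ± 0.76 (edgeR adjusted p = 8.04e-08), although its pools ranged from 0 to 725 CPM, followed by Ifitm3 (1.85) and Ifi211 (1.69), and Ly6e was the 1 member lower (-0.35).

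Non-classical monocyte-like cells, which patrol vessel walls, had 7 members higher and 6 lower, against 24.1% and 11.8% of all genes. Ifitm3 averaged 4405 ± 660 CPM (log2 ratio 2.40 ± 0.14, edgeR adjusted p = 7.02e-19), Zbp1 163 ± 60.1 CPM (1.80) and Ly6e 1794 ± 258 CPM (1.75), while Ifit3 (-2.48), Oasl1 (-1.94) and Isg15 (-1.65) were lower. Stroma or fibroblast-like cells had 2 members higher and 10 lower, against 40.2% and 25.9% of all genes. The 2 higher members were Iigp1 (3.17) and Bst2 (534 ± 89.5 CPM, 1.69), and Oas3 (-2.87), Oasl1 (-2.33) and Zbp1 (-2.19) were lowest. NK-like cells had 0 UMIs of Rsad2 and of Ifit1 in 383 cells, which allows up to 2.04 CPM of each. Their lowest members with UMIs were Ifitm3 (31.0 ± 24.6 CPM, log2 ratio -6.12), Ifi27l2a (14.2 ± 11.4 CPM, -5.90) and Ifi204 (-5.69). Ly6e was kept at 367 ± 104 CPM in NK-like cells, with Bst2 at 73.2 ± 42.5 and Irf7 at 66.6 ± 44.2 CPM.

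The members also differed in whether few cells or many carried them. To compare cells at 1 depth, each cell was thinned to 2000 UMIs, which left out 397 shallower cells, and a cell was called interferon-high when at least 4 of 15 measured core members (Isg15, Ifit1, Rsad2, Cxcl10 and others) had a UMI. This is a range of a score and not a cell type: 3390 of 5273 cells (64.29%) had none of the core members, 104 had 3, 48 had 4, 25 had 8 or more, and the highest had 13. Interferon-high cells were 131 of 5273, 2.48% (95% Wilson interval 2.10 to 2.94, which covers counting error only). For the share of a core member's UMIs, the cells were called from the other core members, so a gene did not choose its own cells. Counts of interferon-high cells, and levels without them, used the call from all core members.

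Those few cells held over 40% of the UMIs of 8 members. Interferon-high cells carried 60.4% of the Ifit1 UMIs, 53.7% of Rsad2, 51.7% of Ifit3, 48.9% of Cxcl10, 48.0% of Ifit2 and of Oasl1, 47.2% of Cxcl9 and 44.8% of Cmpk2, the kinase encoded beside Rsad2. Isg15 was in between, with 32.9% of its UMIs in interferon-high cells and a UMI in 14.1% of all cells. Other members were spread over many cells. Ifitm3 had a UMI in 69.2% of cells and 6.51% of its UMIs in interferon-high cells, Ly6e had 66.6% and 4.06%, Ifi27l2a had 52.3% and 8.27%, and Bst2 had 35.4% and 7.57%. At the same thinned depth Ifitm3 had a UMI in 3.60% of NK-like cells, against 67.2% of neutrophil-like cells. The median over the 41 members was 15.0%. Without thinning, when the depth of a cell enters its call, it was 42.6%.

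**Figure D2:**
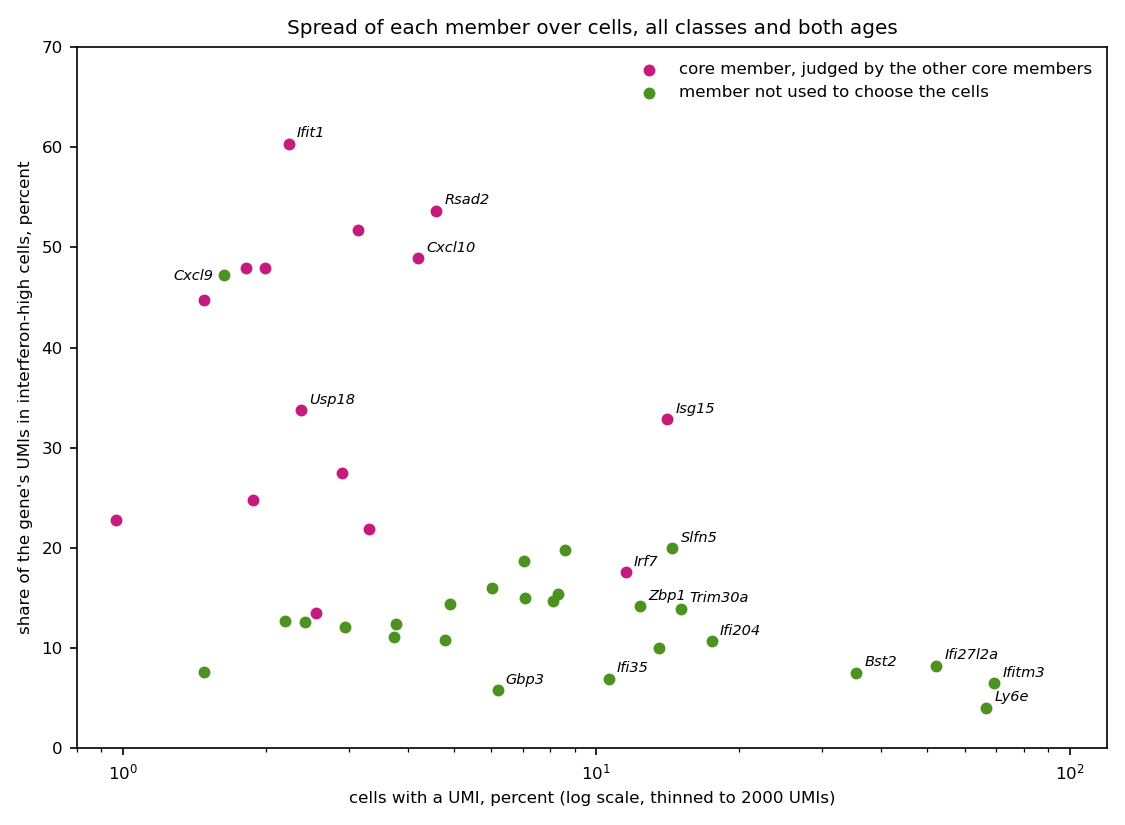
Each point is 1 interferon-stimulated gene, with the percent of cells that have a UMI on a log axis and the percent of its UMIs that lie in interferon-high cells, after thinning to 2000 UMIs. Ifit1, Rsad2 and Ifit3 sit at 60.4%, 53.7% and 51.7%, and Ly6e and Ifitm3 at 4.06% and 6.51% with a UMI in over 60% of cells.

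Interferon-high cells occurred in 14 of the 18 clusters and classes. Cluster 14 had the highest share, 28 of 108 cells (25.9%, 18.6 to 34.9), which was 21.37% of all interferon-high cells. Of the 28, 27 came from pool 2 at 15 months, a pool that held 111 of the 141 cells of this cluster. In that pool 31.4% of the scored cells of the cluster were interferon-high. Classical monocyte-like cells had 16 of 220 (7.27%), mature dendritic-like cells 7 of 89, and neutrophil-like cells 14 of 247 after 192 cells under 2000 UMIs were left out. Cluster 0 had 20 of 603, cDC2-like cells 13 of 526 and macrophage-like cells 20 of 1285. Non-classical monocyte-like and stroma or fibroblast-like cells had 1 each, of 535 and 342 cells, and NK-like cells had 0 of 361, for which the upper limit of the Wilson interval is 1.05%.

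By age, the interferon-high cells were 48 of 1678 at 3 months and 83 of 3595 at 15 months. The mononuclear phagocytes are all clusters with macrophage, monocyte or dendritic markers in first place, the unnamed clusters 0, 12 and 18 among them. Of these phagocytes, the interferon-high cells were 5 of 281, 6 of 320 and 27 of 638 cells in pools 1 to 3 at 3 months. At 15 months they were 4 of 429, 29 of 1434 and 11 of 528. The means were 2.63 ± 1.39% and 1.68 ± 0.65% (SD, n = 3 pools) with overlapping pools (exact two-sided permutation p = 0.60, where 3 pools against 3 allow no p under 0.10). Without thinning the order of the means turned, at 10.5% and 12.97%. In cDC2-like cells, 12 of 13 interferon-high cells were from 3 months, as 0 of 28, 2 of 57 and 10 of 139, against 0 of 36, 1 of 217 and 0 of 49 at 15 months. These pools overlapped at 0, and the exact permutation p was 0.40. Interferon-high phagocytes had a median of 8483 UMIs and 2.17% mitochondrial UMIs, against 8713 UMIs and 2.49% in the other phagocytes. Haemoglobin UMIs were 0.947% and 0.467%.

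Genes outside the list also differed between interferon-high and other phagocytes. The 10 largest ratios at 50 CPM or more were those of Ifit3b and Ifit1bl1, paralogs of the Ifit members, Slfn4, Il12b, Isg20, Ccl5, Dnase1l3, Phf11d, Ifi213 and Gbp4. Ifit3b was at 121 CPM in interferon-high and 1.20 CPM in other phagocytes, and Isg20, an exonuclease, at 296 and 13.1 CPM. Il12b, a leading gene of the mature dendritic-like cluster, had a UMI in 4.88% of the 82 interferon-high phagocytes, so few cells carried its ratio. Ifit3b is near-identical to Ifit3, so reads could be split between them. These cells were chosen by their core members, and the values describe them.

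**Figure D3:**
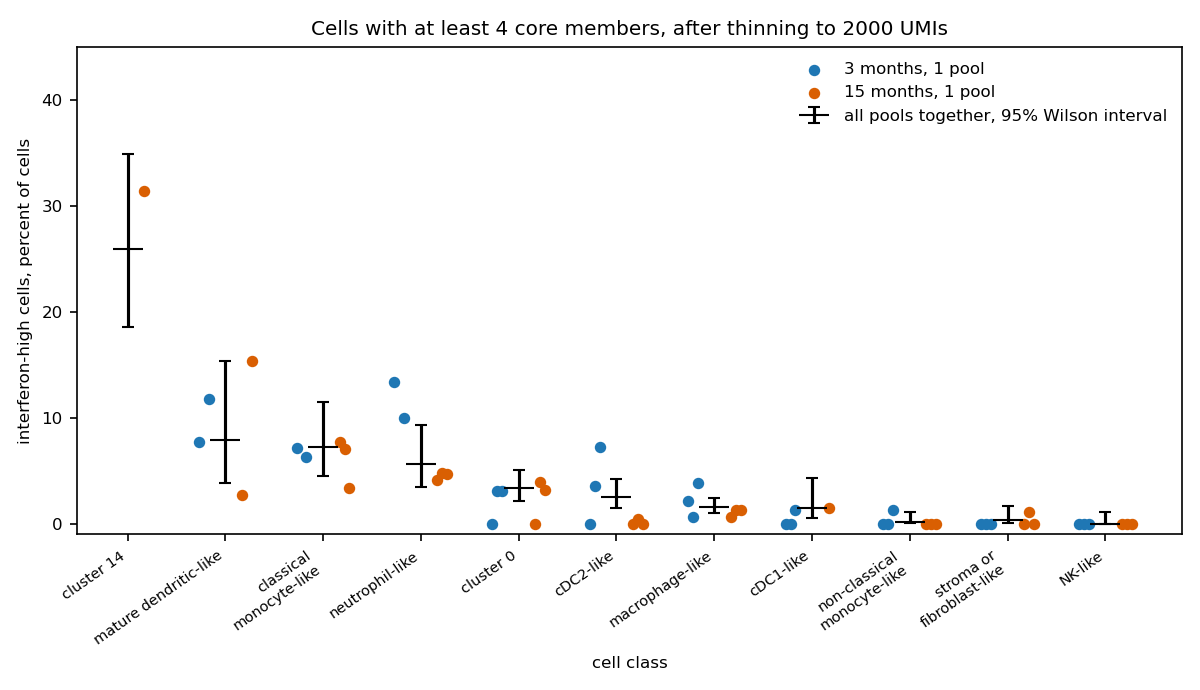
Percent of interferon-high cells in each pool with at least 10 cells (points, by age) and over all pools of a class (bar of the 95% Wilson interval). Cluster 14 stands apart at 25.9%, and NK-like cells are at 0.

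Between the ages, 1 member passed the threshold in 1 class. Cxcl10 fell in cDC2-like cells. Its level was 117, 113 and 230 CPM in the 3 pools at 3 months and 38.1, 47.4 and 15.0 CPM at 15 months. The lowest 3-month pool was above the highest 15-month pool. The means were 153 ± 66.2 and 33.5 ± 16.7 CPM (SD, n = 3), with a log2 ratio of -2.12 ± 0.34 and an edgeR adjusted p of 0.0182 over 5143 genes, of which 0.136% were lower at 15 months at this threshold. It had a UMI in 11.1% of the cells at 3 months and 8.58% at 15 months, and the single highest cell held 99 of the 348 UMIs at 3 months. Without the interferon-high cells the mean levels before scaling were 112 and 33.3 CPM, against 142 and 33.2 CPM with them. Cxcl10 was itself among the core members that called these cells. At this threshold 2 members passed without pool 1 of the 3-month or pool 3 of the 15-month mice. The Cxcl10 call was lost with 2 other hashtag callers (adjusted p = 0.126 and 0.205), with the members kept in the clustering (0.0617), with the hashtag number as a block (0.0801) and without pool 3 of the 3-month mice (0.131). The ratio stayed between -2.69 and -1.60 over all alternatives.

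In cDC2-like cells 23 of the 24 members tested had a negative ratio, where 50% of all genes did, with a median of -0.58, and 10 were lower at an unadjusted p under 0.05, where 4.88% of all genes were and 4.63% were higher. Isg15 was at 108, 110 and 436 CPM at 3 months and 8.80, 51.02 and 84.5 CPM at 15 months (log2 ratio -2.19 ± 0.52, adjusted p = 0.186). The groups did not overlap, and pool 3 of the 3-month mice was highest by far. Irf7 was at 28.1, 34.4 and 199 CPM and then 5.87, 31.2 and 35.7 CPM (-1.90 ± 0.57, adjusted p = 0.298), again led by that pool. Cxcl9 was at 0, 641 and 391 CPM and then 91.0, 59.5 and 13.1 CPM (-2.78 ± 0.75, adjusted p = 0.264), with overlap. Trim30a, a regulator of innate signalling, was at 117, 85.2 and 110 CPM and then 52.8, 70.5 and 73.3 CPM (-0.61 ± 0.21, adjusted p = 0.364), without overlap. None of these 4 passed the edgeR threshold.

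Several members had lower 3-month levels in cDC2-like cells once the interferon-high cells were left out. Isg15 and Irf7 are core members that helped call these cells, so for both a lower level was partly built in. Cxcl9 and Gbp2 had no part in calling the interferon-high cells. Without those cells, the mean level of Isg15 was 87.4 CPM at 3 months in place of 199, against 47.6 CPM at 15 months, and that of Irf7 was 30.9 CPM in place of 78.9, against 24.1 CPM. Cxcl9 was at 69.8 CPM in place of 321, against 53.7 CPM, and Gbp2 at 30.1 CPM in place of 87.2, against 54.7 CPM, so that the order of the ages turned for Gbp2. Leaving out pool 3 of the 3-month mice moved the log2 ratio of Isg15 to -1.06, that of Irf7 to -0.21 and the median over the members to -0.21. With the members kept in the clustering, the ratio was -0.88 for Isg15, -0.34 for Irf7, -0.81 for Cxcl9 and -0.24 for Trim30a, and the median was -0.19. Summed NK marker genes in cDC2-like cells were at 13.6 to 97.8 CPM over the 3-month pools and 5.57 to 12.8 CPM over the 15-month pools, and erythroid markers at 453 to 3561 and 22.2 to 26.0 CPM. The cDC2 markers were at 2617 to 3028 and 1956 to 2557 CPM, and mitochondrial UMIs at 1.66% to 1.70% and 2.04% to 2.44%. Their part in the result was not tested.

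In macrophage-like cells no member passed the threshold among 39 tested, while 0.0724% of 8284 genes did, and 5 members were lower and 3 higher at an unadjusted p under 0.05, against 6.58% and 4.78% of genes. The 7 GTPases all had a positive ratio (median 0.58), while 22 of the other 32 had a negative one (median -0.34) and 50.5% of all genes did. Gbp2 was at 19.9, 20.4 and 31.2 CPM at 3 months and 21.3, 59.0 and 54.5 CPM at 15 months (0.94 ± 0.36, edgeR adjusted p = 0.413), and Gbp3 at 11.2, 13.4 and 35.2 CPM and then 27.6, 45.1 and 42.8 CPM (0.93 ± 0.38, adjusted p = 0.417). Both overlapped between the ages.

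Among the other macrophage members, Oasl1 was at 10.4, 7.57 and 22.2 CPM at 3 months and 3.45, 4.63 and 3.61 CPM at 15 months, without overlap (-1.72 ± 0.43, edgeR adjusted p = 0.362). Ifitm3 was at 1900, 1146 and 1246 CPM and then 699, 1161 and 623 CPM (-0.79 ± 0.27, adjusted p = 0.409), and Irf7 at 46.7, 40.2 and 106 CPM and then 33.3, 42.9 and 30.2 CPM (-0.84 ± 0.34, adjusted p = 0.417), both with overlap. Without pool 3 of the 3-month mice the ratio was -1.07 for Oasl1, -0.23 for Irf7 and 1.68 for Gbp3, and without pool 1 it was -0.51 for Ifitm3. The median over all 39 members was -0.12 and turned to 0.24 without pool 3 of the 3-month mice and to 0.06 without pool 1 of the 15-month mice.

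Cluster 0 had 22 of 31 members negative (median -0.23, where 49.9% of genes were negative) and none past the threshold, which 0.219% of genes passed. At an unadjusted p under 0.05, 9 were lower and none higher, against 3.62% and 3.92% of genes. The median was -0.06 without pool 3 of the 3-month mice and -0.14 without pool 3 of the 15-month mice. The members named by age in cluster 0 and in the classes that follow were chosen after their values were seen. Bst2 was at 523, 470 and 720 CPM at 3 months and 209, 341 and 274 CPM at 15 months, without overlap (-1.04 ± 0.22, edgeR adjusted p = 0.0904). Irf7 (136, 217 and 186 CPM, then 85.4, 105 and 96.9 CPM, adjusted p = 0.115) and Usp18 (29.1, 39.5 and 32.4 CPM, then 17.1, 13.5 and 11.6 CPM, adjusted p = 0.178) had the same order. The Cxcl10 level of cluster 0 rested on 1 cell of pool 2 at 3 months, which held 467 of that pool's 601 UMIs and set it at 2373 CPM, against 20.7 to 165 CPM in the other pools.

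Bst2 had the smallest p in NK-like cells too, at 98.5, 185 and 122 CPM at 3 months and 57.0, 54.1 and 38.6 CPM at 15 months, without overlap (-1.30 ± 0.31, edgeR adjusted p = 0.0549, and 0.0145 with the hashtag number as a block). It was 1 of 7 members tested there, of which 6 were negative, where 50% of genes were. In neutrophil-like cells 10 of 11 members were negative (median -0.61, 47.3% of genes negative) and none passed (0.279% of genes did), with 6 lower and none higher at an unadjusted p under 0.05 against 2.52% and 2.35% of genes. Rsad2 was at 369, 487 and 202 CPM and then 183, 126 and 81.8 CPM there, without overlap (-1.34 ± 0.38, adjusted p = 0.693), on 9 to 43 UMIs per pool. Its ratio turned to 0.19 at Leiden resolution 0.3 and was -0.03 with the hashtag caller MULTIseqDemux, and the median over the members was 0.01 and -0.03 under these settings. Non-classical monocyte-like cells had 9 of 15 negative (49.4% of genes) and none past the threshold (0.445% of genes), with 1 lower and 2 higher at an unadjusted p under 0.05 against 4.95% and 5.89% of genes. Their median of -0.26 turned to 0.05 without pool 1 of the 15-month mice and was -0.09 without pool 2 or pool 3 of the 3-month mice.

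Over all mononuclear phagocytes, where all 41 members could be tested, none passed the edgeR threshold, which 0.0202% of genes passed. Cxcl10 was at 126, 227 and 185 CPM at 3 months and 30.6, 52.9 and 22.3 CPM at 15 months, without overlap (-2.32 ± 0.32, adjusted p = 0.0912), and Cxcl9 at 38.3, 196 and 132 CPM and then 10.5, 26.6 and 33.5 CPM, also without overlap (-2.35 ± 0.55, adjusted p = 0.192). At an unadjusted p under 0.05, 7 members were lower and 1 was higher, against 8.71% and 7.68% of genes. The mix of cell types in this group also moved with age. Its cDC2 markers were at 434 to 825 CPM over the 3-month pools and 340 to 417 CPM over the 15-month pools. Mature dendritic markers were at 165 to 374 and 86.1 to 193 CPM, with overlap. Erythroid markers in this group were at 3719 to 22074 and 25.5 to 346 CPM. The unnamed cluster 12, part of the group, had 5 cells at 3 months and 157 at 15 months, 134 of them in pool 3. The part of the mix and of the erythroid counts in these ratios was not tested. Without the interferon-high cells the mean level of Cxcl10 before scaling was 68.2 CPM at 3 months and 30.1 at 15 months, against 171 and 36.9 CPM with them. Because Cxcl10 helped call these cells, a lower level without them was partly built in. The 1 cell of cluster 0 described above held 467 of the 710 Cxcl10 UMIs of pool 2 at 3 months, and that pool stood at 222 CPM before scaling with it and 76.1 CPM without it.

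The stroma or fibroblast-like cells went the other way. These cells led with mesenchymal markers against the other clusters, although the sort was for CD45+CD11b+ cells. All 8 macrophage markers were present among their UMIs. In every pool their sum, 5304 to 20457 CPM, was above that of the 6 stroma or fibroblast markers, 1831 to 4320 CPM. No member passed the threshold, which 0.112% of genes passed, and 26 of 27 members tested had a positive ratio (median 1.07), where 50.9% of all genes were positive. At an unadjusted p under 0.05, 17 were higher, where 8.36% of all genes were, 1 was lower, where 6.40% were, and 14 had all their 15-month pools above all their 3-month pools, where 10.5% of all genes were. Parp14, an ADP-ribosyltransferase, was at 34.9, 29.98 and 29.2 CPM at 3 months and 65.8, 80.8 and 66.6 CPM at 15 months (1.22 ± 0.22, edgeR adjusted p = 0.0856). Iigp1 was at 12.7, 19.3 and 10.5 CPM and then 32.9, 78.6 and 98.3 CPM (2.41 ± 0.45, adjusted p = 0.0856). Rsad2 was at 9.53, 2.14 and 1.62 CPM, on 3, 1 and 2 UMIs, and then 24.7, 28.3 and 18.6 CPM (2.90 ± 0.55, adjusted p = 0.0926). All 3 had higher levels in every 15-month pool. The ratio of Parp14 was 0.63 and 0.40 with the 2 other hashtag callers.

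Cxcl10 and Gbp2 had the same order in these cells. Cxcl10 was at 54.0, 38.6 and 9.72 CPM at 3 months and 77.3, 116 and 103 CPM at 15 months (1.82 ± 0.48, edgeR adjusted p = 0.169). Gbp2 was at 9.53, 29.98 and 13.8 CPM and then 44.4, 44.6 and 68.8 CPM (1.59 ± 0.38, adjusted p = 0.157), and 6 of 6 GTPases tested were positive. Bst2 was the 1 member with a negative ratio, at 603, 711 and 741 CPM and then 512, 577 and 478 CPM (-0.39 ± 0.15, adjusted p = 0.281).

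Other markers moved with age in the stroma or fibroblast-like cells too. The summed level of the 8 macrophage markers was 5304 to 10480 CPM over the 3-month pools and 9352 to 20457 CPM over the 15-month pools. Lipid-associated macrophage markers were at 404 to 632 and 1284 to 2336 CPM, T cell markers at 0 to 2.17 and 17.4 to 96.3 CPM, neutrophil markers at 6.08 to 14.0 and 33.1 to 144 CPM, and granulosa markers at 624 to 1755 and 173 to 706 CPM. Endothelial markers were at 219 to 372 and 382 to 408 CPM, B cell markers at 30.4 to 129.5 and 167 to 187 CPM, erythroid markers at 333 to 471 and 22.8 to 30.5 CPM, and theca or luteal markers at 1940 to 3152 and 452 to 2424 CPM. At Leiden resolution 1.0 an endothelial-like cluster of 65 cells and a theca or luteal-like cluster of 34 cells were named, and clusters of both kinds were named with both other hashtag callers. Their part in the result was not tested. The median over the members was 0.22 and 0.32 with the 2 other hashtag callers, and between 0.71 and 1.33 when 1 pool was left out.

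**Figure D4:**
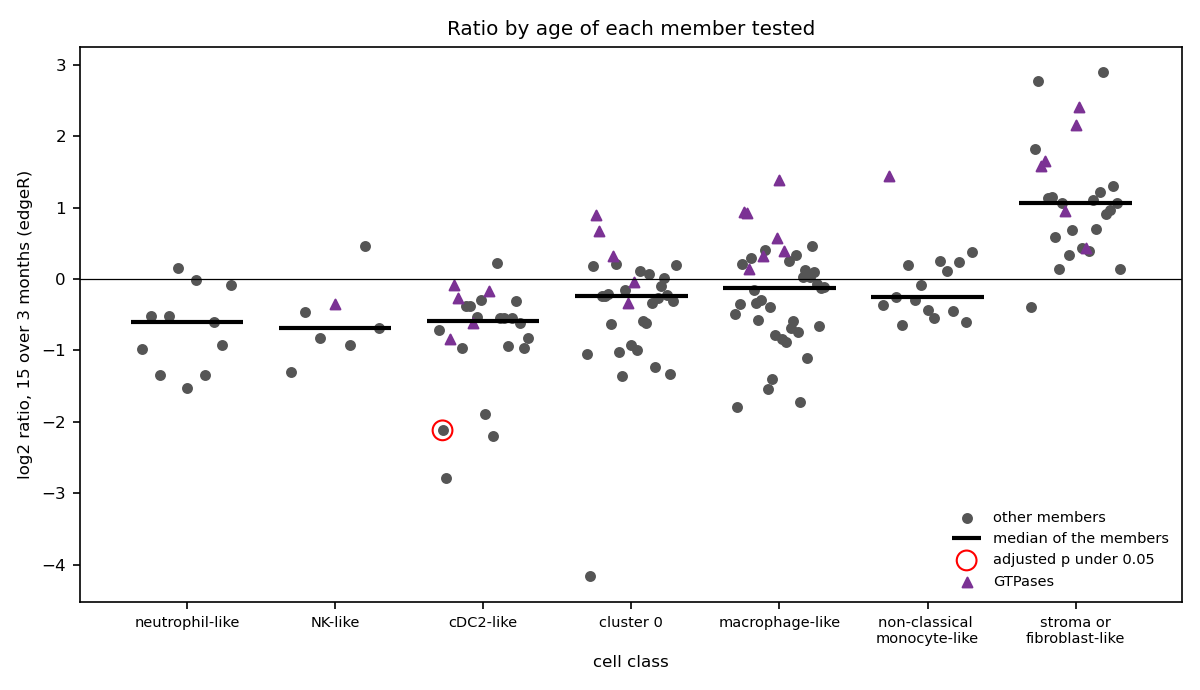
Log2 ratio of 15 over 3 months for each interferon-stimulated gene tested in each class (points, with triangles for GTPases and a ring where the edgeR adjusted p is under 0.05). Cxcl10 in cDC2-like cells is the 1 ringed point, 23 of 24 members lie below 0 in that class, and 26 of 27 lie above 0 in stroma or fibroblast-like cells.

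**Figure D5:**
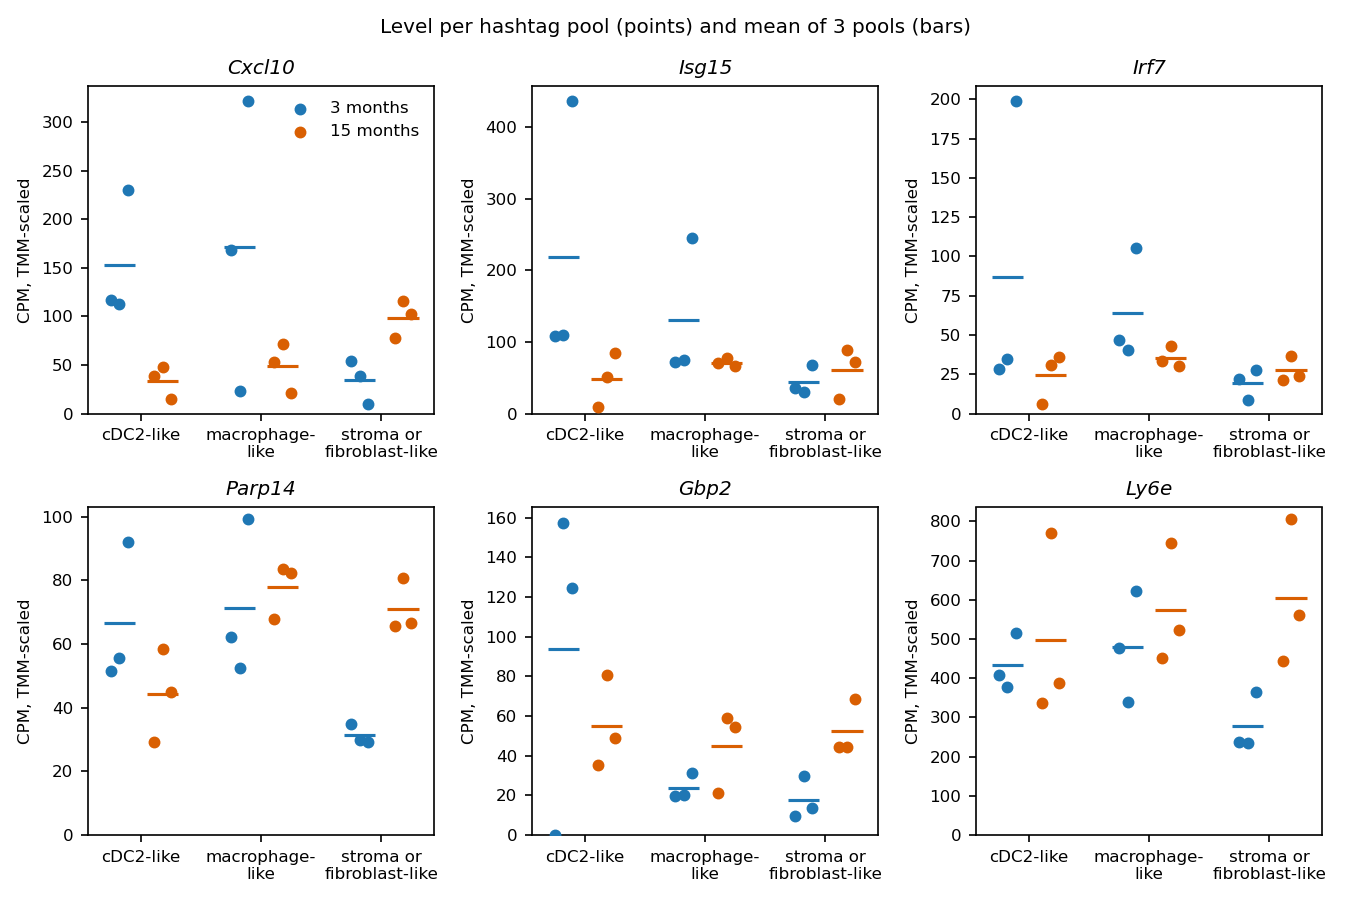
Level in CPM of Cxcl10, Isg15, Irf7, Parp14, Gbp2 and Ly6e in each pool of cDC2-like, macrophage-like and stroma or fibroblast-like cells at 3 and 15 months (1 point a pool). Cxcl10 lies at 113 to 230 CPM and then 15.0 to 47.4 CPM in cDC2-like cells, and at 9.72 to 54.0 and then 77.3 to 116 CPM in stroma or fibroblast-like cells.

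The difference of the age effect between 2 classes was tested itself, with the pool as a block, since the classes come from the same pools. Between cDC2-like and stroma or fibroblast-like cells, 16 of 31 members had a lower age effect in cDC2-like cells, where 1.15% of 7894 genes did, and 0 of 31 had a positive difference, where 47.5% of genes did. The difference was -2.71 ± 0.39 on the log2 scale for Isg15 (edgeR adjusted p = 0.0053), -4.16 ± 0.62 for Cxcl10 (0.0053), -5.72 ± 0.91 for Rsad2 (0.0066), -3.79 ± 0.63 for Ifit3 (0.0083) and -2.50 ± 0.43 for Zbp1 (0.0089). The size for Rsad2 rests on its few 3-month UMIs in stroma or fibroblast-like cells, given above. The remaining 11 were Iigp1, Cxcl9, Ifi204, Ifi211, Gbp2, Irf7, Slfn5, Rtp4, Parp14, Ifit1 and Trim30a. Of all members, 1 in cDC2-like cells and 3 in stroma or fibroblast-like cells had no more than 3 UMIs at an age. A difference among the 11 can therefore rest on few UMIs. The count was 2 without pool 3 of the 3-month mice, 9 at Leiden resolution 1.0 and 0 with the hashtag caller MULTIseqDemux. Looking at every member in this pair was chosen after the age effects had been seen.

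A further pair of comparisons was added after the values were seen. Stroma or fibroblast-like cells had a higher age effect than all mononuclear phagocytes for 4 of 41 members, where 0.163% of 11058 genes did: Cxcl10 (4.35 ± 0.52), Cxcl9 (5.23 ± 0.82), Ifit1 (3.23 ± 0.50) and Rsad2 (3.87 ± 0.66), with edgeR adjusted p from 0.0136 to 0.0395. Against macrophage-like cells the 1 member was Rsad2 (4.38 ± 0.67, adjusted p = 0.0374), where 0.0293% of genes were higher. Both Rsad2 values rest on its few 3-month UMIs in stroma or fibroblast-like cells. On the phagocyte side, the Cxcl10 level of pool 2 at 3 months rested largely on 1 cell of cluster 0, as given above. The mix of phagocyte types moved with age, as given above, and its part in these differences was not tested. The count of 4 was 1, 0 and 1 without pools 1, 2 and 3 of the 3-month mice, 2 at resolution 1.0 and 1 with MULTIseqDemux. The count of 1 was 0 in both of the latter and without pool 2 of either age, and 3 without pool 3 of the 3-month or pool 1 of the 15-month mice. Isg15 had a lower age effect in cDC2-like than in NK-like cells (-2.94 ± 0.46, edgeR adjusted p = 0.0096, 0.249% of genes lower). It was picked in this pair after its value was seen. Cxcl10, the member planned for this pair, did not pass (-1.58 ± 0.59, edgeR adjusted p = 0.634). The cDC2-like minus NK-like fit was not rerun with other settings or with a pool left out. Against neutrophil-like cells, where 0.0944% of genes were lower, the 1 member past the threshold was Cxcl10. It is not read as a difference of age effects, because neutrophil-like cells had 0 Cxcl10 UMIs at 3 months and 34 at 15 months. No member passed for cDC2-like cells against macrophage-like cells (median difference -0.83 over 39 members), cluster 0 or non-classical monocyte-like cells, where 0.0234%, 0.00% and 0.00% of genes were lower, with edgeR as the only tool run for these differences. On simulated data for cDC2-like minus stroma or fibroblast-like cells, such a fit recovered 57 of 200 genes that differed by 2 on the log2 scale. That simulation gave all genes the same dispersion and no pool effect, and changed only genes above a set number of UMIs. It does not give the recovery for members with few UMIs or for other pairs. A member that did not pass can therefore still differ.

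The ligands and receptors of the pathway were taken from a list of 30 further genes. Ifnb1, the interferon beta gene, had 0 UMIs among 50630570, which allows up to 0.0593 CPM. Ifng was found in NK-like cells, with 616 of its 689 UMIs in 171 of 383 cells (419 CPM), and in T-like cells, with 47 UMIs in 27 of 126 cells. In cDC2-like cells, a type that should lack it, it had 0 UMIs in 528 cells. No pathway gene passed the edgeR threshold by age in any class, with 19 tested in cDC2-like cells (4 lower and 1 higher at an unadjusted p under 0.05, against 4.88% and 4.63% of all genes) and 19 in stroma or fibroblast-like cells (0 lower and 5 higher, against 6.40% and 8.36%).

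Of the 19 pathway genes tested in stroma or fibroblast-like cells, 16 had a positive age ratio (median 0.50), where 50.9% of all genes did. In these cells Ifngr1 was at 83.6 ± 22.01 and 155 ± 24.7 CPM (0.86 ± 0.23, adjusted p = 0.176), Ifngr2 at 102 ± 30.6 and 112 ± 24.4 CPM (0.11), Ifnar1 at 45.7 ± 7.78 and 55.2 ± 17.3 CPM (0.33), Ifnar2 at 65.0 ± 7.25 and 87.5 ± 34.4 CPM (0.47) and Irf9 at 19.8 ± 8.96 and 34.5 ± 3.53 CPM (0.69).

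In cDC2-like cells, where Cxcl10 fell, Ifnar1 was at 74.0 ± 15.0 and 64.5 ± 24.8 CPM (log2 ratio -0.15 ± 0.26, edgeR adjusted p = 0.891), with overlapping pools. Ifnar2 was at 90.6 ± 5.42 and 58.5 ± 17.5 CPM without overlap (-0.54 ± 0.22, adjusted p = 0.460). Ifngr1 was at 283 ± 21.1 and 358 ± 51.1 CPM (0.34 ± 0.17, adjusted p = 0.567) and Ifngr2 at 127 ± 6.06 and 111 ± 22.4 CPM (-0.27 ± 0.19, adjusted p = 0.696).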

How the data were processed

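The data are 10x Chromium 3′ (v3.1) mRNA and hashtag counts deposited by the authors as raw UMI counts per gene and barcode. The submitters' processing notes name Cell Ranger 7.0.0, FastQC 0.11.4 and mm10, while per the file headers the matrices were written by Cell Ranger 4.0.0. Cells passed 500 genes, 1000 UMIs and 10% mitochondrial UMIs and were assigned to pools with HTODemux (Seurat 5.3.0). Hashtag doublets were removed. Doublets inside a pool stayed in, since a caller marked 3 of 2232 and 3 of 4347 cells and had not worked. Clusters (scanpy 1.11.5, Leiden resolution 0.6, 2000 variable genes, 30 components, interferon-stimulated genes left out, no integration) were named from marker lists. The naming rule was set after the clusters were seen: at least 3 markers in 20% of cells, a score of 0.5, a lead of 0.25 and 2 own markers among the top 10 genes. Rebuilt names may differ from the authors' own.

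Counts were summed per pool and class (at least 10 cells in each of 6 pools), filtered with filterByExpr, scaled with TMM and tested with edgeR 4.0.16's quasi-likelihood test, with Benjamini-Hochberg adjustment over all genes tested and a threshold of 0.05. CPM per pool are TMM-scaled, and levels over all cells of a class are unscaled. A standard error is the log2 ratio divided by the square root of F. Over the 7 classes 154 fits of a member by age were made. Cmpk2 passed the filter in no class by age. On simulated data, the age fit recovered 54 of 93 genes changed by 1 on the log2 scale in cDC2-like cells, and 82 of 82 changed by 2. In stroma or fibroblast-like cells it recovered 21 of 90 and 82 of 92, and in macrophage-like cells 47 of 97 and 91 of 93. The fit of a difference of age effects was simulated for cDC2-like minus stroma or fibroblast-like cells only. It recovered 57 of 200 genes given a difference of 2 on the log2 scale. Unlike the age simulations, which took each gene's dispersion from the data, it used the same dispersion for all genes. It had no pool effect and changed only genes above a set number of UMIs. The members and lists were chosen with earlier results of these data known. Named members were those past the threshold by age, the 5 of smallest p in cDC2-like and macrophage-like cells, those of highest CPM in each class and the 3 furthest above and below the other classes. Others are marked as chosen after their values were seen. Alternatives were DESeq2 1.42.0, other scaling, filters, hashtag callers and cluster resolutions, a block on the hashtag number, and each pool left out.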

Additional observations from a re-analysis of the deposited data

Results flagged for a closer look

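Differences of the age effect between cell classes past the threshold of a test of the difference are listed here, all from edgeR fits with the pool as a block. In cDC2-like minus stroma or fibroblast-like cells 16 members passed, among them Isg15 (-2.71 on the log2 scale), Cxcl10 (-4.16), Rsad2 (-5.72), Ifit3 (-3.79) and Zbp1 (-2.50). In cDC2-like minus NK-like cells 1 member passed, Isg15 (-2.94), which was picked after its value was seen. That fit was not rerun with other settings or with a pool left out. In cDC2-like minus neutrophil-like cells the 1 member past the threshold, Cxcl10, is not read as a difference, because neutrophil-like cells had 0 Cxcl10 UMIs at 3 months. In stroma or fibroblast-like cells minus mononuclear phagocytes 4 members passed, Cxcl10 (4.35), Cxcl9 (5.23), Ifit1 (3.23) and Rsad2 (3.87). In stroma or fibroblast-like minus macrophage-like cells 1 member passed, Rsad2 (4.38). The Rsad2 values listed here rest on its few 3-month UMIs in stroma or fibroblast-like cells. In the mononuclear phagocytes, the Cxcl10 level of pool 2 at 3 months rested largely on 1 cell of cluster 0.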

How the results depend on the processing

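Age and library cannot be told apart, each age has 3 pools, and pool 3 of the 3-month mice holds 10 of the 13 interferon-high cDC2-like cells. In the count of members past the threshold by age, the values below follow the reported ones. NK-like cells went from 0 to 1 with MULTIseqDemux, the ratio rule for hashtags, the strict filter, Leiden resolution 0.3, no expression filter and the replicate block. In cDC2-like cells 1 became 0 with MULTIseqDemux, the ratio rule and the members in the clustering, and 13 with no filter. Cluster 0 went from 0 to 9 with no filter and 1 with DESeq2, macrophage-like cells to 1 at resolution 0.3 and 8 with no filter, and non-classical monocyte-like cells to 1 with no filter and with the block. Stroma or fibroblast-like cells went from 0 to 1 with the strict filter, 13 with no filter and 3 with DESeq2, and mononuclear phagocytes from 0 to 2 with no filter, DESeq2 and the block. The difference between cDC2-like and macrophage-like cells went from 0 to 1 with MULTIseqDemux. The difference between cDC2-like and stroma or fibroblast-like cells went from 16 to 9 at resolution 1.0 and 0 with MULTIseqDemux. The stroma or fibroblast-like minus mononuclear phagocyte count went from 4 to 2 and 1, and the stroma or fibroblast-like minus macrophage-like count from 1 to 0 under both. Causes were not tested.

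With each pool left out in turn, the counts by age ranged from 0 to 0 in NK-like and neutrophil-like cells, 0 to 2 in cDC2-like (0 without 3-month pool 3), 0 to 4 in cluster 0 (4 without 3-month pool 1, and 1 without 3-month pool 2 or 3), 0 to 3 in macrophage-like (3 without 3-month pool 3), and 0 to 1 in non-classical monocyte-like (15-month pool 1 or 2), stroma or fibroblast-like (15-month pool 1) and all mononuclear phagocytes (3-month pool 3 or 15-month pool 2). Against the other classes they ranged from 8 to 11 in cDC2-like cells, 21 to 30 in cluster 0, 7 to 20 in macrophage-like, 16 to 21 in neutrophil-like, 14 to 26 in NK-like, and 10 to 14 in non-classical monocyte-like and stroma or fibroblast-like cells. For the differences they ranged from 0 to 2 (cDC2-like minus macrophage-like, 2 without 3-month pool 1 and 1 without 15-month pool 3), 2 to 18 (cDC2-like minus stroma or fibroblast-like), 0 to 6 (stroma or fibroblast-like minus mononuclear phagocytes) and 0 to 3 (minus macrophage-like).

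The share of interferon-high mononuclear phagocytes was 2.63% at 3 months and became 5.20% with at least 3 core members, 1.13% with at least 6, 5.22% at 4000 UMIs, 10.5% without thinning and 1.71% without Cxcl10 and Irf7 in the core list. At 15 months 1.68% became 3.08%, 0.413%, 4.11%, 12.97% and 0.897%, so that the order of the ages turned without thinning. In cDC2-like cells 3.57% at 3 months became 9.29% with at least 3 core members, 1.20% with at least 6, 11.3% without thinning and 2.26% without Cxcl10 and Irf7, and 0.154% at 15 months became 1.23%, 0, 6.75% and 0, and 1.64% at 4000 UMIs. The median share of UMIs in interferon-high cells went from 15.0% to 42.6% without thinning. Rsad2 in neutrophil-like cells turned to a log2 ratio of 0.19 at resolution 0.3.

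The hashtag numbers are not read as pairing the pools in any class. Only in NK-like cells did each pool correlate best with its own number, and those correlations were small, at 0.12, 0.10 and 0.10. A larger same-number correlation occurred elsewhere, at 0.17 for number 1 in stroma or fibroblast-like cells. With the block, Cxcl10 in cDC2-like cells left the threshold (adjusted p = 0.0801) and Isg15 passed it (0.0479), and in all mononuclear phagocytes Cxcl10 (0.0119) and Cxcl9 (0.0135) passed. Removal of scrublet calls was not run. Cluster 0 could not be followed at resolution 0.3 or with the members in the clustering, and the strict filter left neutrophil-like cells without a value.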
